A study of Homo sapiens with 3 samples.

Results

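The Polycomb core genes examined here were the 10 genes RING1, RNF2, BMI1, PCGF1, PCGF2, PCGF6, RYBP, EZH2, EED and SUZ12, which were taken by symbol from a table of 60930 entries for PC3 cells. All 10 were found, and all 10 were among the 13629 compared, whose level averaged 1 TPM or more over the libraries (TPM is a read share corrected for transcript length and scaled to the same sum in each library). PC3 is an established, androgen-independent human prostate cancer line. Its cells carried a vector control (shCON, with RFP as its column label), or hairpin shUSP16#1 or shUSP16#2 against the deubiquitinase USP16. The authors state that hairpins were cloned into pLKO.1 and that stable cells were selected with puromycin. They give no hairpin sequence for the control. There was 1 library of total RNA per condition, so no difference below has a replicate check, and TPM keeps no depth from which an error could be given. Epithelial keratins and EPCAM were present in all 3 libraries at 136 TPM or more. KLK2 and KLK3, which encode secreted prostate kallikreins, were listed at 0, and of 6 markers of other cell types only CD68 (31.7 to 42.2 TPM) and COL1A1 (4.19 to 10.7 TPM) passed 2 TPM in any library.

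Polycomb proteins keep genes silent by marking histones. Polycomb repressive complex 1 (PRC1) places a single ubiquitin on histone H2A through the RING ligases RING1 and RNF2 (also called RING1B), each paired with a PCGF protein, while PRC2 methylates histone H3 through EZH2. Of the 10 genes, 7 encode parts of PRC1. EZH2, EED and SUZ12 form the core of PRC2 and do not themselves ubiquitinate H2A. USP16 removes ubiquitin from H2A, and the comparison asks how far the RNA of the writers differed in cells with less of this eraser.

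The hairpins that define the groups are shown because their short seeds can also pair with other transcripts. The antisense strands, which pair with the USP16 mRNA, are printed 5′ to 3′ with the seed, bases 2 to 8, in capitals.
shUSP16#1: aTAAACATgatttcttctggc
shUSP16#2: aAATCTTGtggaatatcaccg
The first matched the 3′ untranslated part of USP16, in exon 19 of 19 on chromosome 21 (GRCh38, 29054296 to 29054316, forward strand), and the second the coding sequence across the junction of exons 18 and 19 (29053942 to 29054069). USP16 itself stood at 19.9 TPM in shCON against 3.5 TPM with shUSP16#1 and 1.08 TPM with shUSP16#2, so its order across the libraries followed the labels.

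In shCON, PCGF1 was the most abundant of the 10 genes at 37.3 TPM and RNF2 the least at 5.53 TPM. EZH2 (28.3 TPM), RING1 (23.9 TPM), EED (20.5 TPM) and BMI1 (20.3 TPM) stood in the upper part, and SUZ12 (8.7 TPM), PCGF6 (8.44 TPM), PCGF2 (8.04 TPM) and RYBP (5.64 TPM) in the lower. With 1 library no spread is known, so neighbours as close as EED and BMI1, or SUZ12, PCGF6 and PCGF2, cannot be put in order. Under both hairpins RING1 took the first place, at 35.4 and 32.1 TPM, ahead of PCGF1. RYBP and RNF2 held the last places in all 3 libraries.

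**Figure D1:**
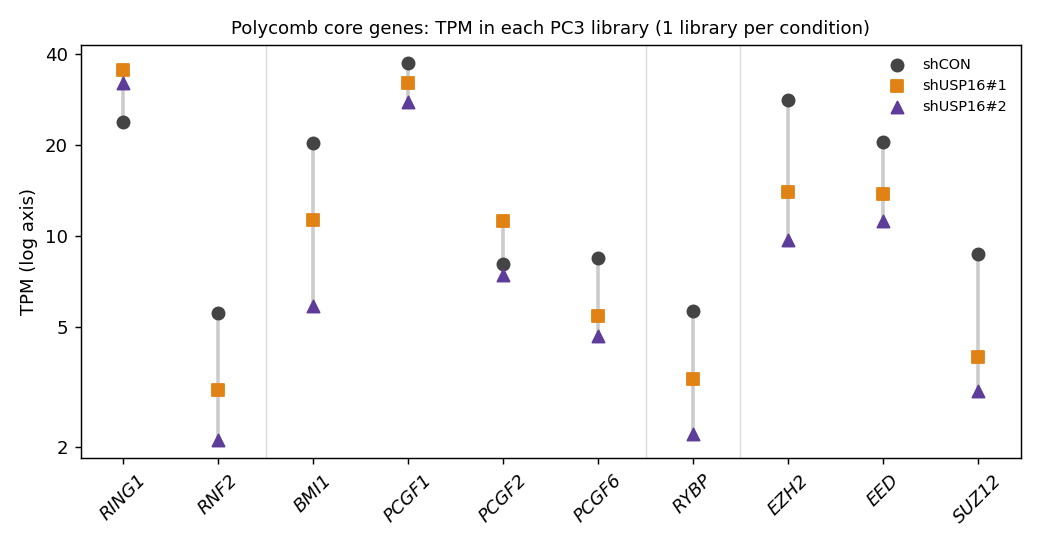
TPM (log axis) of the 10 Polycomb core genes in the shCON, shUSP16#1 and shUSP16#2 libraries, 1 point per library, with vertical rules between the RING ligases, the PCGF genes, RYBP and the PRC2 genes. RING1 is the gene whose shCON point (23.9 TPM) lies below both hairpin points, and PCGF2 is the gene whose shCON point lies between them.

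Of the 10 genes, 8 were lower than shCON under both hairpins, RING1 was higher under both and PCGF2 differed in direction. Centred on the median of all genes, PCGF2 was also higher under both, and with the trend by GC content described below removed, neither PCGF2 nor RING1 kept 1 direction. With both corrections together, a setting chosen after the data were seen, 5 of the 10 were lower under both hairpins (EZH2, BMI1, SUZ12, RNF2 and PCGF1), RING1 and EED were higher under both, and 3 differed in direction. The medians of the 10 were then -0.059 and -0.13. The median change of the 10, as the difference in log2(TPM + 1), was -0.58 under shUSP16#1 and -0.93 under shUSP16#2, where the medians over every tested gene were -0.17 and -0.37. Among all tested genes, 57.2% were lower and 24.5% higher under both hairpins. A difference was called when it reached 2-fold on this scale, which understates the change of genes at low TPM. Under shUSP16#2, 5 of the 10 were called lower (BMI1, EZH2, SUZ12, RNF2 and RYBP), against 19.5% of all tested genes, and none was called higher, against 2.78%. Under shUSP16#1 none was called lower, against 5.76%, or higher, against 2.82%. None was therefore called under both hairpins, where 4.58% of tested genes were called lower and 1.12% higher. EZH2 and SUZ12 missed this by a narrow margin under shUSP16#1, at -0.97 and -0.96, and both were past 2-fold in both libraries with a pseudocount of 0.1 TPM, a setting with which 8.03% of all tested genes were lower. The libraries are bulk RNA, in which fewer cells expressing a gene and less RNA of it per cell cannot be told apart, and both hairpins are set against the same shCON library.

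**Figure D2:**
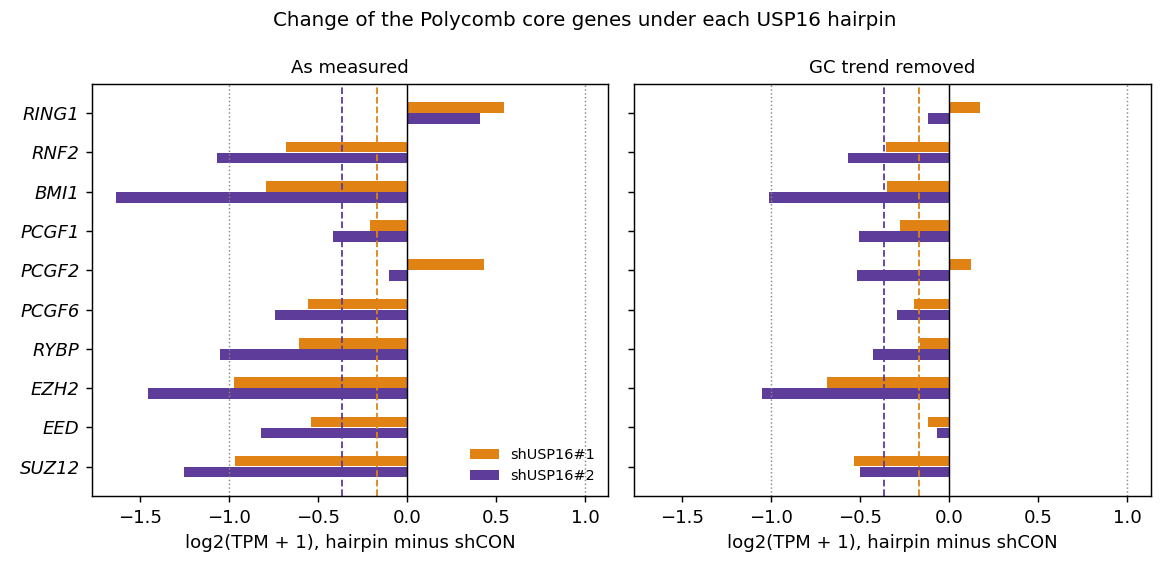
Difference in log2(TPM + 1) between each hairpin library and shCON for the 10 genes, as measured (left) and after the trend with GC content was removed (right); dashed lines give the medians of all tested genes as measured, -0.17 and -0.37, and dotted lines mark 2-fold. As measured RING1 is higher under both hairpins, and with the trend removed only EZH2 and BMI1 pass 2-fold, under shUSP16#2 alone.

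The libraries differed in how level followed base composition. Values for this are given beside some of the changes that follow, and the other changes are as measured. Across 13290 genes with a known GC content of their transcripts, the rank correlation of change with GC content was 0.537 for shUSP16#1 and 0.636 for shUSP16#2, so GC-poor transcripts were generally lower under the hairpins. The 10 Polycomb genes ran from 37.7% GC (SUZ12) to 60.5% GC (RING1), and over them the same correlation was 0.612 and 0.685, a description of 10 genes that share the 3 libraries. Their rank correlation with transcript length was -0.612 and -0.624, against -0.263 and -0.303 over all tested genes. Once the trend was removed, the median change of the 10 was -0.24 under shUSP16#1 and -0.50 under shUSP16#2, near the medians of -0.18 and -0.37 of all genes treated in the same way. The part of base composition in the single differences was not tested.

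**Figure D3:**
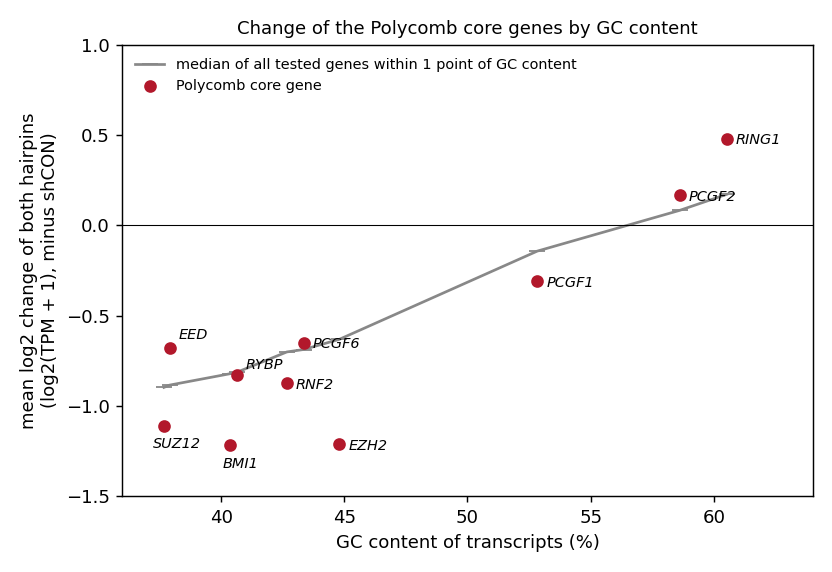
Mean log2 change of both hairpins against shCON (vertical axis) by GC content of the transcripts in percent (horizontal axis) for the 10 genes, with a grey line through the median change of all tested genes within 1 percentage point of each gene's GC content. RYBP, PCGF6 and PCGF2 lie near the line, EZH2 and BMI1 furthest below it, and RING1 furthest above it.

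The catalytic RING ligases differed in opposite directions. RING1 (ENSG00000204227, chromosome 6, 33208495 to 33212722, forward strand) was at 23.9 TPM in shCON against 35.4 TPM with shUSP16#1 and 32.1 TPM with shUSP16#2, changes of 0.55 and 0.41. Both hairpin libraries were above shCON, and these changes stood at percentiles 90.3 and 88.2 of all tested genes. RNF2 (ENSG00000121481, chromosome 1, 185045364 to 185102608, forward strand), generally the more active ligase of the pair, was at 5.53, 3.08 and 2.11 TPM in the same order, changes of -0.68 and -1.07. Both hairpin libraries were below shCON, with shUSP16#2 the lowest. The ratio of RING1 to RNF2 TPM was thus 4.32 in shCON against 11.5 with shUSP16#1 and 15.2 with shUSP16#2, while the sum of both was 29.4, 38.5 and 34.2 TPM. RING1 is the most GC-rich of the 10 and RNF2 among the GC-poor at 42.7%. With the GC trend removed the changes of RING1 were 0.17 and -0.12, so its direction under shUSP16#2 turned, and those of RNF2 were -0.35 and -0.57.

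PCGF proteins decide which PRC1 assembly a RING ligase joins. BMI1 (PCGF4) and PCGF2 (MEL18) are the partners in canonical PRC1, which CBX proteins bring to methylated H3, while PCGF1 and PCGF6 belong to variant complexes that contain RYBP or YAF2. BMI1 (ENSG00000168283, chromosome 10, 22321211 to 22331484, forward strand) and EZH2 had nearly the same mean change, -1.22 and -1.21, the lowest of the 10, and 1 library per condition cannot put them in order. BMI1 was at 20.3 TPM in shCON against 11.3 TPM with shUSP16#1 and 5.85 TPM with shUSP16#2, or -0.80 and -1.64. These changes were at percentiles 12.5 and 3.41 of all tested genes, and the levels of the hairpin libraries differed from each other by a ratio of 1.93. Among 872 genes within 1 percentage point of its GC content (40.4%) the mean change stood at percentile 15.1. BMI1 shares exons with the readthrough gene COMMD3-BMI1, which covers 23.3% of its exonic bases and was listed at 8.4, 2.79 and 3.24 TPM, so reads could have been divided between them. With both entries added, the mean change was -1.27 in place of -1.22.

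PCGF2 (ENSG00000277258, chromosome 17, 38733897 to 38749817, reverse strand), the closest paralogue of BMI1, was at 8.04 TPM in shCON against 11.2 TPM with shUSP16#1 and 7.42 TPM with shUSP16#2. The control value lay between those of the hairpins, with changes of 0.43 and -0.10. Its exons overlap those of CISD3 on the opposite strand over 32.7% of their bases, and CISD3 was at 24.8, 20.9 and 26.8 TPM. The counting is not stated to use strand, so reads of these genes may not have been told apart. BMI1 was at 2.53 times the TPM of PCGF2 in shCON against 1.00 times with shUSP16#1 and 0.79 times with shUSP16#2. BMI1 has a GC content of 40.4% and PCGF2 of 58.6%. With the GC trend removed the changes were -0.35 and -1.01 for BMI1 and 0.12 and -0.52 for PCGF2.

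PCGF1 (ENSG00000115289, chromosome 2, 74505043 to 74508580, reverse strand), the partner of KDM2B and BCOR, had the smallest difference of the genes lower under both hairpins. It was at 37.3, 32.2 and 27.7 TPM in shCON, shUSP16#1 and shUSP16#2, changes of -0.21 and -0.42, which lay -0.04 and -0.05 from the medians of all tested genes. PCGF6 (ENSG00000156374, chromosome 10, 103302796 to 103351144, reverse strand), which acts with MGA and L3MBTL2, was at 8.44, 5.41 and 4.64 TPM, changes of -0.56 and -0.74. Its values under the hairpins lay close together and below shCON, and genes of its GC content had a median mean change of -0.69 where its own was -0.65.

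With PCGF3 and PCGF5 included, which complete the family, the summed PCGF level was 102 TPM in shCON against 78.5 TPM with shUSP16#1 and 66.7 TPM with shUSP16#2. PCGF1 held 36.5%, 41.0% and 41.6% of it. The share of BMI1 was 19.9%, 14.4% and 8.77%, or 25.97%, 17.3% and 13.0% with the readthrough gene added. PCGF5, also a variant partner, was at 20.4, 7.45 and 8.69 TPM and was called lower under both hairpins, at -1.34 and -1.14. That call was lost with the GC trend removed, at -0.91 and -0.54, and under shUSP16#2 with centring, at -0.77. PCGF3, which forms the same kind of variant complex as PCGF5, was higher under both, at 7.72, 10.9 and 12.4 TPM. Their shares were 19.9% for PCGF5 and 7.56% for PCGF3 in shCON, 9.49% and 13.9% under shUSP16#1, and 13.0% and 18.6% under shUSP16#2. PCGF3 has a GC content of 57.4% and PCGF5 of 41.4%, and with the GC trend removed their mean changes were 0.19 and -0.72.

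**Figure D4:**
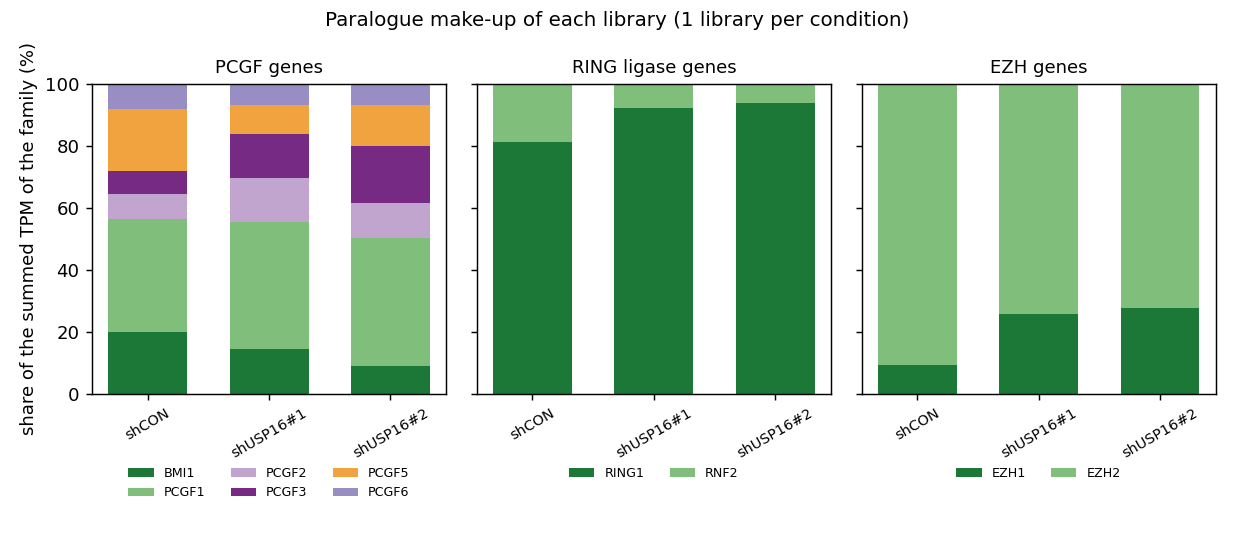
Share of each paralogue in the summed TPM of its family (percent, bars from 0 to 100) in each of the 3 libraries, for the PCGF genes, the RING ligase genes and the EZH genes. The share of BMI1 goes from 19.9% in shCON to 8.77% under shUSP16#2, that of RNF2 from 18.8% to 6.17%, and that of EZH2 from 90.9% to 72.4%.

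RYBP (ENSG00000163602, chromosome 3, 72371825 to 72446621, reverse strand) binds the RING ligase in variant PRC1 and stimulates it. RYBP was at 5.64 TPM in shCON against 3.36 TPM with shUSP16#1 and 2.21 TPM with shUSP16#2, changes of -0.61 and -1.05. Both hairpin libraries were lower, and genes of its GC content (40.6%) had medians of -0.62 and -1.02. YAF2, the paralogue that takes the same place in the complex, was also lower under both, at 8.08, 4.45 and 4.77 TPM. The ratio of RYBP to YAF2 was 0.70 in shCON against 0.76 with shUSP16#1 and 0.46 with shUSP16#2.

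In PRC2, which methylates lysine 27 of histone H3, all 3 core genes were lower under both hairpins as measured, EED not so with both corrections together, with a summed level of 57.5 TPM in shCON against 31.7 TPM with shUSP16#1 and 23.9 TPM with shUSP16#2. EZH2 (ENSG00000106462, chromosome 7, 148807383 to 148884321, reverse strand), the methyltransferase, was at 28.3, 13.9 and 9.67 TPM, changes of -0.97 and -1.46. Plain TPM was 2.03 and 2.92 times lower than in shCON. These changes stood at percentiles 6.6 and 6.08 of the tested genes. After removal of the GC trend they were -0.69 and -1.05, the lowest of the 10 genes in each library, and among 1194 genes within 1 percentage point of its GC content (44.8%) the mean change stood at percentile 8.88.

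SUZ12 (ENSG00000178691, chromosome 17, 31937018 to 32001045, forward strand), the scaffold of the complex, was at 8.7 TPM in shCON against 3.97 TPM with shUSP16#1 and 3.06 TPM with shUSP16#2, changes of -0.96 and -1.26. The hairpin libraries lay close together, both well under shCON. Genes of its GC content (37.7%) had medians of -0.61 and -1.15. The pseudogene SUZ12P1, a near copy that could take some of its reads, was at 5.18, 3.27 and 3.14 TPM. Adding it gave SUZ12 a mean change of -0.95 in place of -1.11. EED (ENSG00000074266, chromosome 11, 86244544 to 86278813, forward strand), which reads the methyl mark and activates EZH2, was at 20.5, 13.8 and 11.2 TPM, changes of -0.54 and -0.82. It showed the smallest change of the 3, less than the -0.60 and -1.13 of genes of its GC content (37.9%).

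EZH2 stood at 1.38 times the TPM of EED in shCON against 1.01 times with shUSP16#1 and 0.86 times with shUSP16#2. Against SUZ12 the ratio varied less, at 3.25, 3.51 and 3.16. EZH1, the paralogue of EZH2 found mainly in cells that divide little, was higher under both hairpins, at 2.84 TPM in shCON against 4.82 TPM with shUSP16#1 and 3.69 TPM with shUSP16#2. The ratio of EZH2 to EZH1 was therefore 9.95 in shCON against 2.89 with shUSP16#1 and 2.62 with shUSP16#2. EZH1 remained higher with the GC trend removed, at 0.78 and 0.47.

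Expression of EZH2 is known to follow the division of cells. The 12 genes of a list of proliferation genes had median changes of -0.87 under shUSP16#1 and -1.23 under shUSP16#2. As measured, 11 were lower under both hairpins, against 57.2% of all tested genes, and 4 were called lower under both, against 4.58%. MKI67, which encodes Ki67, was at 29.6, 12.1 and 8.78 TPM. The medians of the 3 PRC2 genes were -0.96 and -1.26, and with the GC trend removed -0.54 and -0.50, beside -0.65 and -0.78 for the proliferation genes. The part of proliferation in the levels of the Polycomb genes was not tested.

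Promoters of the 10 genes, from 250 bases before to 50 after the annotated start (RefSeq, GRCh38.p14; 12 windows, since EZH2 and BMI1 have several starts), were searched for the letters by which E2F factors, regulators of cell cycle genes, are known. The motifs were TTTCCCGC, TTTCGCGC, TTTGCCGC and TTTGGCGC on both strands. At least 1 of them was found in 3.32% of 35116 promoter windows. Among the 10 genes it was found for EZH2, in 1 of its windows at position 2 of the transcript, and for SUZ12, at position -189 from its start. These windows had GC contents of 74.7% and 73%, where the median over all windows was 58.7%. Windows of like GC content were not compared, and a relation of the motif to the changes was not tested. The sequences are shown 5′ to 3′ on the strand of the gene, with the motif in capitals.
EZH2, chr7:148884272-148884301, reverse strand: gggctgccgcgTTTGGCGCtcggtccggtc
SUZ12, chr17:31936792-31936851, forward strand: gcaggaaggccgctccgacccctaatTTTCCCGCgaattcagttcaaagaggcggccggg
The other windows, those of BMI1, RNF2, RYBP and EED included, did not hold these letters. A match describes the sequence and does not show that a factor binds there.

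As measured, the hairpins differed from each other in the same direction for the whole list. All 10 genes were lower under shUSP16#2 than under shUSP16#1, where 73.5% of all tested genes were. The median difference was -0.34 for the 10 and -0.21 for all tested genes. BMI1 differed most, by -0.84, and RING1 least, by -0.14. For 7 of the 10 the difference was below the median of all genes. With the GC trend removed the direction was not shared by all. EED was then at -0.12 under shUSP16#1 and -0.07 under shUSP16#2, and SUZ12 at -0.54 and -0.50, while the others were still lower under shUSP16#2. A relation to the USP16 level was not tested.

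Seed matches of the hairpins were counted in the 3′ untranslated part of the coding transcript with the longest coding sequence of each gene. The site of the shUSP16#1 seed, ATGTTTA, was found once each in BMI1, PCGF6, EED and SUZ12, and in 19.9% of 11262 tested coding genes. That of the shUSP16#2 seed, CAAGATT, was found in none of the 10 genes and in 10.2% of the coding genes. The 10 include the 5 genes called lower under shUSP16#2, too few to set none apart from a share of 10.2%. A relation of the sites to the changes was not tested. The longest exact stretch shared with a hairpin was 11 of 21 bases, for SUZ12 and shUSP16#1. The other genes shared from 6 to 9 bases with either hairpin. The 3′ untranslated part had a median of 963 bases over the coding genes. It held 1942 bases in BMI1, 2042 in SUZ12, 1109 in PCGF6 and 288 in EED, and length was not matched. The counts of sites and shared bases describe the sequences and not silencing.

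The other genes of the Polycomb complexes, 39 in all, of which 37 reached the minimum, showed medians near those of all genes, -0.21 under shUSP16#1 and -0.33 under shUSP16#2. Of the 37, 25 were lower and 7 higher under both hairpins, and 2 were called lower (PCGF5 and PHC3) and 1 higher (CBX7) under both, against the 4.58% and 1.12% of all tested genes given above. None of these 3 calls held with the GC trend removed, where PHC3 was at -0.83 and -0.58 and CBX7 at 0.64 and 0.50, and both lower calls were also lost with centring. Canonical PRC1 subunits, which read methylated H3 or join complexes together, had medians of 0.01 and -0.12 over 10 genes. CBX7, a reader of methylated H3, was at 3.44, 7.88 and 8.09 TPM in shCON, shUSP16#1 and shUSP16#2, and its change of 1.00 under shUSP16#1 lay exactly at the threshold. PHC3, which joins complexes into larger assemblies, was at 5.7, 1.89 and 2.14 TPM, while PHC2, the most abundant gene of this group, was at 47.3, 49.3 and 46.0 TPM. The 14 tested variant subunits had medians of -0.29 and -0.36, and SKP1, the most abundant, was at 475, 282 and 256 TPM. The 10 tested PRC2 partners had medians of -0.37 and -0.82, and RBBP7, a histone-binding subunit and the most abundant of these, was at 138, 88.8 and 79.7 TPM. Median GC content was 43.0% for the 10 core genes, 53.6% for the 37 and 59.5% for the canonical subunits.

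**Figure D5:**
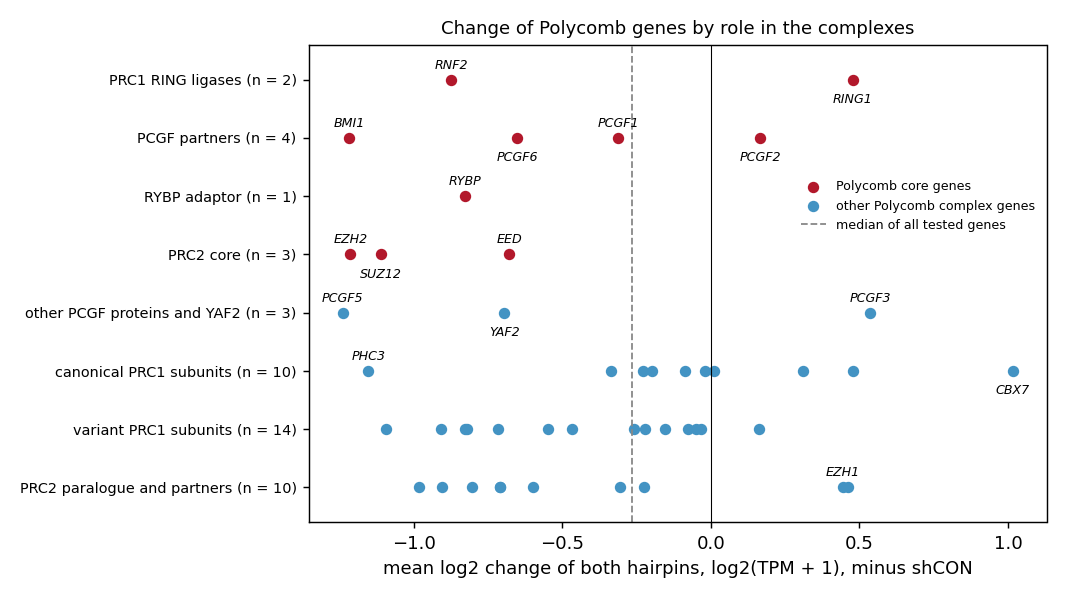
Mean log2 change of both hairpins against shCON for the Polycomb core genes (red) and for the other tested genes of the complexes (blue), by role, 1 point per gene, with the median of all tested genes (-0.27) as a dashed line. CBX7 at 1.02 is the highest gene, and PCGF5, BMI1, EZH2, PHC3 and SUZ12 are those at or below -1.11.

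Among 9293 genes that averaged 5 TPM or more, those whose pair of changes lay nearest to that of BMI1 were FBXO28, GALNT1 and SEC62, at distances of 0.0042 to 0.020 on the log2 scale, and 46 genes lay within 0.1. Those nearest to RING1 were PINK1, SLCO4A1 and ZBTB45, and 123 genes lay within 0.1. This likeness rests on 3 libraries.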

How the data were processed

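RNA-seq of PC3 cells was deposited as 1 table of TPM values, computed by the authors on the Majorbio Cloud Platform, with 1 library per condition. The submitters' processing notes name CASAVA, HISAT2 and hg19. The quantification tool and annotation are not given in the sources used here. A further 3 columns repeat the TPM columns and were not used. Depth is unknown.

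Entries without a symbol (307) kept their identifier and repeated names (1211) were left out, which left 59719 names. Genes that averaged 1 TPM or more were compared as log2(TPM + 1), hairpin minus shCON. Positions, gene types and GC content (mean over the transcripts of a gene) came from GENCODE release 29 (GRCh38), matched by gene identifier for 57311 names. These positions do not come from the hg19 build. For the GC trend, the median change of each of 50 bins of GC content was subtracted and the median of all genes added back. No test across samples was possible. Genes named were the 10 members, USP16, paralogues, readthrough genes and pseudogenes, MKI67, the most abundant gene of each wider role in shCON, wider genes called under both hairpins, and the 3 nearest in change to the lowest and highest member. CISD3, RRM2 and E2F1 were named after their values were seen. The members and lists were chosen with earlier results of these data known. Alternatives were a pseudocount of 0.1 TPM, centring, other minimums, protein-coding genes alone, removal of the GC trend, this with centring (added after the data were seen), near copies added and each hairpin alone. Calls and trend removal were tried on simulated data. The planted changes were well past the threshold and spared genes of low level in shCON. The simulation therefore does not bear on calls near the threshold or at low TPM. Tables were handled with pandas 2.3.3 and numpy 2.4.6 in Python 3.11.15, rank correlations with scipy 1.17.1 and plots with matplotlib 3.10.9.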

Additional observations from a re-analysis of the deposited data

Results flagged for a closer look

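PCGF2 was higher than shCON under shUSP16#1, with a log2 change of 0.43, and lower under shUSP16#2, with -0.10. This opposite direction with 1 library each was not tested. Both values were above the medians of all tested genes, -0.17 and -0.37, and with the GC trend removed they were 0.12 and -0.52.

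PHC2, a canonical PRC1 subunit, had changes of 0.06 and -0.038 in the same order, a difference in direction that was also not tested.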

How the results depend on the processing

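No paired analysis was possible because only 1 library was made per condition. Other minimums and protein-coding genes alone cannot alter the change of a single gene, so for single core genes only the pseudocount and the corrections bear on stability. With the pseudocount of 0.1, 0 of 10 mean changes moved by more than the SD of both hairpins. That SD measures how far the hairpins differ and not measurement error, so a gene on which they differ widely rarely counts as moved. BMI1, with an SD of 0.60, did not count as moved on going from -1.22 to -0.68 with the GC trend removed. With centring 5 of 10 did, with the GC trend removed 6 of 10, and with both corrections together, added after the data were seen, 9 of 10. The direction of the mean turned for PCGF2 with the trend removed and with shUSP16#2 alone, and for EED (0.18) and PCGF6 (0.03) with both corrections. RING1 went from 0.48 to 0.03 with the trend removed, 0.75 with centring and 0.30 with both.

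The median mean change of the core genes, -0.75, became -0.34 with the GC trend removed, -0.48 with centring and -0.068 with both, and ran from -0.93 to -0.58 with a single hairpin. Under shUSP16#1 it became -0.24 with the trend removed and -0.059 with both. Under shUSP16#2 it became -0.50 with the trend removed, -0.57 with centring and -0.13 with both.

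Core genes called lower under both hairpins went from 0 to 2 with a pseudocount of 0.1, where 2 were called under shUSP16#1, and numbered from 0 to 5 in a single hairpin. The 5 called lower under shUSP16#2 became 2 with the trend removed (9.94% of all genes tested in that setting), 2 with centring (7.73%), 0 with both (2.63%) and 3 with a minimum of 5 TPM (19.5%), which leaves out RNF2 and RYBP. Of the other Polycomb genes, the 2 called lower under both became 0 with the trend removed (2.14% of all genes), 0 with centring (1.98%), 0 with both (0.805%), 1 with the minimum of 5 TPM (4.76%) and 5 with the pseudocount of 0.1 (8.03%). The 1 called higher became 0 with the trend removed (0.722%) and 0 with both (1.5%). Protein-coding genes alone and no minimum changed none of these counts. Depth, and with it the precision of genes as low as RNF2 and RYBP, is unknown.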
